A study of Mus musculus with 10 samples.

Results

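The sarcomere and muscle contraction genes are 38 genes that encode the thin and thick filaments of striated muscle, the Z-disc and M-band that anchor them, and the proteins that release calcium or supply energy for contraction. They were chosen by name from a written list, and 36 of them had a row among the 24620 rows of the count table. Tnnc2 and Mybph were not analysed here. After a filter on low counts, 21 of the 38 were tested among 7753 genes. The other 15 with a row were described by their raw counts.

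Muscle stem cells (MuSCs, or satellite cells) were compared between 5 control and 5 Trpm7 cKO libraries by RNA-seq of transcript 3′ ends, each library prepared from 3000 sorted cells 3 days after muscle injury by cardiotoxin (CTX). Control mice were Trpm7+/+; Pax7CreERT2/+; Rosa26YFP and Trpm7 cKO mice were Trpm7 flox/flox; Pax7CreERT2/+; Rosa26YFP, all of them adults on a C57BL6 background given tamoxifen (TMX). Both groups therefore carried the Cre allele and received TMX, and Cre was driven by Pax7, so that recombination was directed to MuSCs. TRPM7 is a channel for divalent cations including Mg2+, and the comparison asks which transcripts differ in MuSCs that lack it. The labels do not say that each library came from a separate animal, and the library names of Trpm7 cKO replicates 4 and 5 share a number, so that p-values measure the spread between these libraries, which may be technical.

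A sarcomere shortens when myosin heads of the thick filament pull on actin of the thin filament. Tropomyosin and the troponin complex cover actin until calcium, released from the sarcoplasmic reticulum, binds troponin C. Titin spans from Z-disc to M-band and nebulin runs along the thin filament. Quiescent MuSCs hold no sarcomeres. When their progeny leave the cell cycle and differentiate, myogenic regulators such as MyoD and myogenin switch on contractile genes, at first the embryonic and cardiac isoforms and later the fast and slow isoforms of adult fibres.

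Each value below is a count of unique molecules (UMIs) read at the 3′ end of a transcript, given raw or as normalized CPM, the count divided by the library's scaled total and set to a common library size. A library yields 1 count per captured molecule whatever the transcript's length, so that no length correction was made. Levels of different genes still depend on capture and on how reads were assigned, so that a ranking between genes is approximate. The totals ran from 914361 to 1097709 counts in control and from 205986 to 581121 in Trpm7 cKO libraries, without overlap, so depth cannot be told apart from genotype. With a floor of 3 counts per library, the lowest level that could be read was 2.87 to 3.37 CPM in control and 4.80 to 15.5 CPM in Trpm7 cKO libraries. These limits cover counting error only. Trpm7 itself was counted 67, 66, 84, 83 and 66 times in control and 38, 55, 23, 28 and 10 times in Trpm7 cKO libraries, with a log2 fold change of -0.10 ± 0.20 (SE) and an adjusted p of 0.717. These counts were read at the transcript's 3′ end, and the study's text does not name the sequence between the loxP sites. They do not test whether the gene was recombined.

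In Trpm7 cKO MuSCs, 14 of the 21 tested genes were lower and 3 were higher at an adjusted p-value below 0.05 (edgeR quasi-likelihood test, two-sided, Benjamini-Hochberg over 7753 genes). The background was high, since 24.2% of all tested genes were called lower and 24.5% higher. With a log2 fold change beyond 1.5 required as well, 5 were lower (Ttn, Mylpf, Tnnt2, Actn3 and Neb), against 3.53% of all tested genes, and 1 was higher (Tnni1), against 8.42%. In 9 of the 21 genes every Trpm7 cKO library lay below every control library, against 17.9% of all tested genes, and in 1 gene every Trpm7 cKO library lay above, against 16.5%. The 9 include Tnni2, which did not pass the test. With 2 counts in each of Trpm7 cKO replicates 3 and 5, under their floors, its order cannot be read. The median log2 fold change of the 21 was -0.72, beside -0.01 over all genes tested. The genes that passed the filter are those with counts, and these shares do not describe the 38 as a whole.

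**Figure D1:**
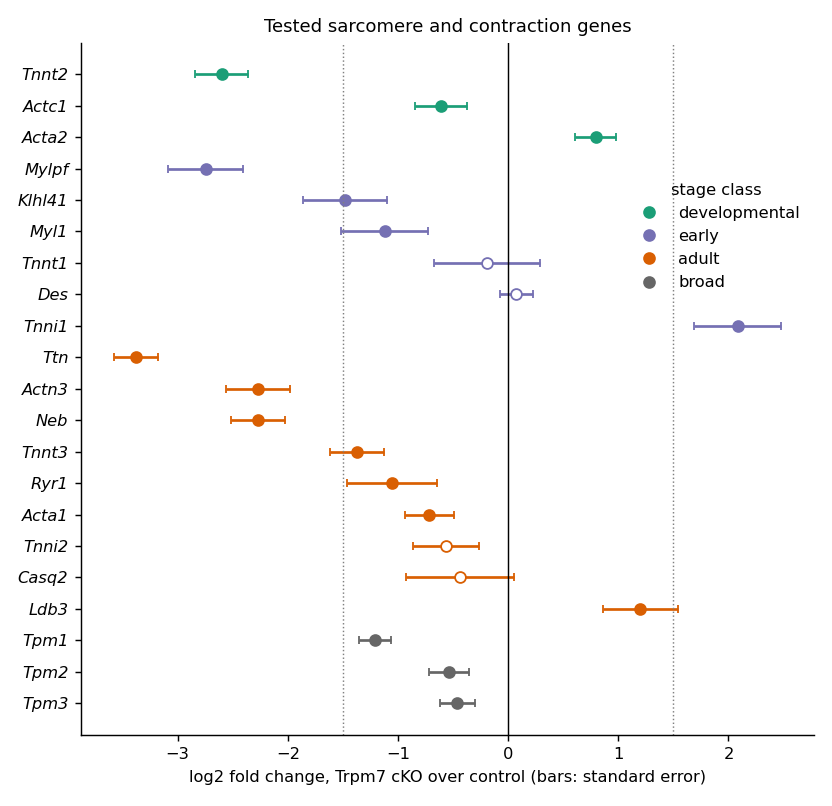
Log2 fold change of Trpm7 cKO over control for the 21 tested sarcomere and contraction genes, ordered by stage class, with bars for the standard error of the edgeR fit over 5 libraries per group. Filled points passed the adjusted p threshold of 0.05 and dotted lines mark log2 fold changes of -1.5 and 1.5; Ttn lies lowest at -3.38 and Tnni1 highest at 2.08.

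The sequence upstream of 4 of these genes is given because they moved furthest in either direction and RefSeq holds their start site (GRCm38.p6). Ttn (minus strand), Mylpf and Tnnt2 were lower in Trpm7 cKO MuSCs and Tnni1 was higher. The windows end at the annotated start, except that of Tnni1, which ends before the first GENCODE exon in it, and those of Mylpf and Tnni1 lie in introns of longer GENCODE gene models. They lie at chr2:76982548-76982797, chr7:127211358-127211607, chr1:135836084-135836333 and chr1:135799171-135799401. Capitals mark matches, on either strand, to 4 motifs: CAGCTG, an E-box of the kind bound by MyoD and myogenin, CATTCC, bound by TEAD factors, the MEF2 consensus and the CArG box bound by serum response factor.
Ttn: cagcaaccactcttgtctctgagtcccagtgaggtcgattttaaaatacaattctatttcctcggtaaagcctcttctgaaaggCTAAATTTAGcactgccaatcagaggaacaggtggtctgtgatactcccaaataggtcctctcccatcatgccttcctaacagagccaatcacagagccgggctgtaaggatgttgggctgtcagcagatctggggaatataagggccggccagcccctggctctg
Mylpf: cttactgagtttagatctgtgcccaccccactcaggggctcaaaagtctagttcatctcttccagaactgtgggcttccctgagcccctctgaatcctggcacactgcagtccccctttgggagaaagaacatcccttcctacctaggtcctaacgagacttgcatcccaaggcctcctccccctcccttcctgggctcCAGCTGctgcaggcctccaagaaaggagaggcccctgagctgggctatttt
Tnnt2: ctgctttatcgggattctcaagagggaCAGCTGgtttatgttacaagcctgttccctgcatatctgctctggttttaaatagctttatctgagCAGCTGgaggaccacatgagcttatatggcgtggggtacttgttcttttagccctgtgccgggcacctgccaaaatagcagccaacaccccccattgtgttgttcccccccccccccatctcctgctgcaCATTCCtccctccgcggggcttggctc
Tnni1: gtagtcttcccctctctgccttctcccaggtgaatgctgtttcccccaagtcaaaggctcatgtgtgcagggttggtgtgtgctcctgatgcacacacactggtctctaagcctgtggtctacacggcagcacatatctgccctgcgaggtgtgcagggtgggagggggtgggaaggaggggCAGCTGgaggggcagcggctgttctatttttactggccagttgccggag

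The Ttn window held a MEF2 match beginning 166 bases before the start and no CAGCTG. The Mylpf window held CAGCTG 51 bases before the start, and that of Tnnt2 held it at 223 and 157 bases before the start with CATTCC at 27. CAGCTG also stood 68 bases before the start of Tnni1, so that the E-box letters occurred upstream of genes that moved in opposite directions. In windows of 300 bases (250 before and 50 after the start), CAGCTG occurred in 14 of the 32 listed genes with an entry, including 7 of 11 genes that were lower, and in 16.1% of all 27025 windows. CATTCC occurred in 12 of 32 and 14.6% of all, the MEF2 consensus in 6 of 32 and 3.26%, and the CArG box in 6 of 32 and 1.57%. No 2 of the matches in the 4 printed windows overlapped. A match is a description of letters and not a binding site.

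The thin filament genes, 13 with a row, included 12 that were tested, of which 8 fell and 2 rose, against 24.2% lower and 24.5% higher of all tested genes. They cover the actins, the tropomyosins, the troponins and nebulin. Neb (chr2:52136647-52378474, GRCm38), whose product runs along the thin filament, stood at 167, 133, 202, 266 and 158 CPM in control and 37.8, 47.9, 59.6, 27.2 and 15.5 CPM in Trpm7 cKO libraries. Every Trpm7 cKO library lay below every control library. Neb fell 4.82-fold, with a log2 fold change of -2.27 ± 0.24 (SE) and an adjusted p of 5.04e-07.

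Tnnt2, the cardiac troponin T that developing skeletal muscle also uses, had the highest level of the troponins analysed here in control MuSCs (chr1:135836354-135852260). It stood at 196, 144, 274, 295 and 146 CPM in control and 28.8, 30.2, 38.6, 41.6 and 36.1 CPM in Trpm7 cKO libraries. The groups were far apart, the highest Trpm7 cKO library reaching 41.6 CPM and the lowest control library 144 CPM. Tnnt2 fell 6.06-fold, with a log2 fold change of -2.60 ± 0.24 (SE) and an adjusted p of 7.16e-08. Tnnt3, the troponin T of adult fast fibres, stood at 55.5, 50.1, 72.1, 90.5 and 48.3 CPM in control and 23.4, 28.4, 31.5, 19.2 and 20.6 CPM in Trpm7 cKO libraries. It also fell without overlap, 2.59-fold, with a log2 fold change of -1.37 ± 0.24 (SE) and an adjusted p of 1.04e-04. Tnnt1, the troponin T of slow fibres, ranged from 7.66 to 27.0 CPM in control and from 1.6 to 35.1 CPM in Trpm7 cKO libraries and did not pass the test, with a log2 fold change of -0.19 ± 0.48 (SE) and an adjusted p of 0.766. Its lowest value, from 1 count in Trpm7 cKO replicate 4, was under the floor of that library. Within the troponin T counts of a library, a share that needs no scaling, Tnnt2 took 71.8% ± 3.65 (SD, n = 5) in control and 47.0% ± 12.5 in Trpm7 cKO MuSCs, and Tnnt3 took 21.9% ± 1.45 and 32.1% ± 3.46. The Tnnt3 shares did not overlap, and those of Tnnt2 met at 66.7%.

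Troponin I, the inhibitory subunit, showed the 1 rise past both thresholds. Tnni1, its slow and early isoform (chr1:135779434-135810989), was low in every library, with 2, 8, 5, 10 and 5 raw counts in control and 19, 23, 6, 8 and 3 in Trpm7 cKO libraries, or 1.91, 8.02, 5.15, 9.63 and 5.61 CPM in control and 34.2, 40.8, 21.0, 12.8 and 15.5 CPM in Trpm7 cKO libraries. On the CPM scale every Trpm7 cKO library lay above every control library. Tnni1 rose 4.24-fold, with a log2 fold change of 2.08 ± 0.39 (SE) and an adjusted p of 1.98e-04. The ratio of summed counts over depth was 4.37, with an exact 95% interval of 2.77 to 7.03 that covers counting error only. Tnni2, its fast adult counterpart, had 18, 15, 20, 15 and 14 raw counts in control and 6, 6, 2, 9 and 2 in Trpm7 cKO libraries. Its normalized levels ran from 14.4 to 20.6 CPM in control and from 7.01 to 14.4 CPM in Trpm7 cKO libraries, and it did not pass the test, with a log2 fold change of -0.56 ± 0.30 (SE) and an adjusted p of 0.134. Trpm7 cKO replicates 3 and 5, with 2 counts each, were under their floors of 10.5 and 15.5 CPM, so that the order of the groups cannot be read from these levels. Tnni1 took 26.2% ± 11.9 (SD, n = 5) of the troponin I counts in control and 67.5% ± 13.6 in Trpm7 cKO MuSCs, without overlap. These shares rested on 20, 23, 25, 25 and 19 counts in control and 25, 29, 8, 17 and 5 in Trpm7 cKO libraries. Trpm7 cKO replicate 4 stood at 47.1% (95% interval 23.0 to 72.2) and control replicate 4 at 40% (21.1 to 61.3). The intervals of these libraries overlapped. Of troponin C, Tnnc1, the slow and cardiac form, was analysed, with 1, 5, 9, 14 and 7 counts in control and 5, 4, 4, 0 and 4 in Trpm7 cKO libraries. The ratio over depth was 1.05 (95% interval 0.553 to 1.92), so that no difference was detectable at this depth. The 3′ end of Tnnc1 overlaps Nisch on the opposite strand, and the strand setting of the counting is not given in the sources used here.

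The 3 muscle actins did not move together. Acta1, the skeletal α-actin, stood at 78.5, 99.2, 138, 172 and 141 CPM in control and 57.6, 90.5, 109, 59.2 and 77.4 CPM in Trpm7 cKO libraries. The groups overlapped, and Acta1 fell to 60.9% of its control level, with a log2 fold change of -0.72 ± 0.22 (SE) and an adjusted p of 0.0121. Gm20388 on the opposite strand overlaps its 3′ end. Actc1, the cardiac α-actin of developing muscle, stood at 109, 82.2, 149, 131 and 147 CPM in control and 115, 95.9, 87.6, 56.0 and 30.97 CPM in Trpm7 cKO libraries. It fell to 65.6%, with a log2 fold change of -0.61 ± 0.24 (SE) and an adjusted p of 0.0395, with overlap, and its call was lost under the same sign in 11 of the 23 alternatives, including leaving out control replicate 3, 4 or 5 or Trpm7 cKO replicate 3, 4 or 5, with adjusted p between 0.0593 and 0.110. For Actc1, 12.4% of the last 500 transcript bases are shared with Actg2 and a gene on the opposite strand overlaps, so that its counts are uncertain. Acta2, the smooth muscle α-actin, which is also expressed by developing and activated myogenic cells, stood at 374, 399, 429.7, 594 and 522 CPM in control and 857, 1053, 676, 931 and 465 CPM in Trpm7 cKO libraries. It was the most abundant of the 3 in every library, and it rose to 173% of its control level, with a log2 fold change of 0.79 ± 0.19 (SE) and an adjusted p of 0.00157, although its sign turned to -0.05 when libraries were scaled on MuSC identity genes and to -0.24 with counts per 3000 sorted cells. The control and Trpm7 cKO ranges of Acta2 overlapped through Trpm7 cKO replicate 5. As a share of the 3 actins, Acta2 took 65.2% ± 3.32 of the counts in control and 83.2% ± 4.29 in Trpm7 cKO MuSCs, Acta1 17.4% ± 2.15 and 8.90% ± 3.80, and Actc1 17.4% ± 2.95 and 7.94% ± 2.65, each without overlap.

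Markers of smooth muscle and pericytes were also higher in Trpm7 cKO libraries with TMM scaling. In Trpm7 cKO replicate 5, where Acta2 was lowest at 465 CPM, Rgs5 was highest at 325 CPM and Synpo2 lowest at 36.1 CPM. Of the 14 genes in that list, 6 were tested, 5 rose and 1 did not pass, against 24.5% of all tested genes that rose, and their summed level was 323 ± 61.6 CPM (242 to 409) in control and 1134 ± 165 CPM (912 to 1327) in Trpm7 cKO libraries. Tagln, an actin-binding protein of smooth muscle, had 9, 8, 11, 10 and 13 counts in control and 151, 212, 114, 182 and 76 in Trpm7 cKO libraries. Rgs5, a regulator of G protein signalling used as a pericyte marker, rose from 14.1 ± 7.13 to 169 ± 102 CPM (log2 fold change 3.48, adjusted p = 9.20e-05), and Synpo2, an actin-binding protein of smooth muscle and the Z-disc, from 25.8 ± 9.04 to 86.9 ± 54.5 CPM (1.83, adjusted p = 0.00213). Myh11 and Cnn1, defining markers of contractile smooth muscle, were too low to be tested. Myh11 ranged from 0 to 9.63 CPM in control and from 5.16 to 22.4 CPM in Trpm7 cKO libraries, and Cnn1 had at most 1 count in any library. Notch3 is in this list and in that of MuSC identity. The part of such cells in the Acta2 level was not tested.

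Tropomyosins, which have broad use across muscle and other cells, fell together with all 3 members called, where 24.2% of all tested genes were called lower. Tpm1 stood at 881, 761, 809.9, 999.6 and 763 CPM in control and 329, 378, 379, 451 and 268 CPM in Trpm7 cKO libraries, without overlap between the groups. It fell 2.31-fold, with a log2 fold change of -1.21 ± 0.15 (SE) and an adjusted p of 1.70e-06. Tpm2 stood at 86.1, 100.2, 110.2, 116 and 94.3 CPM in control and 43.2, 74.6, 77.1, 76.8 and 87.8 CPM in Trpm7 cKO libraries, and its groups overlapped at Trpm7 cKO replicate 5. It fell to 69.0% of control, with a log2 fold change of -0.54 ± 0.18 (SE) and an adjusted p of 0.0184, and lost its call without control replicate 4 (-0.47, adjusted p = 0.0537) or Trpm7 cKO replicate 1 (-0.38, adjusted p = 0.0689). Tpm3 stood at 926, 867, 809, 819 and 818 CPM in control and 445, 508, 599, 779 and 764 CPM in Trpm7 cKO libraries, with every Trpm7 cKO library below every control library. It fell to 72.6%, with a log2 fold change of -0.46 ± 0.16 (SE) and an adjusted p of 0.0185, and lost its call without control replicate 1 (-0.43, adjusted p = 0.0517) or without Trpm7 cKO replicate 1 (-0.36, adjusted p = 0.0585) or 2 (-0.40, adjusted p = 0.0586). For Tpm3, 94.6% of the last 500 transcript bases are shared with Tpm3-rs7, which had 128 counts in control and 141 in Trpm7 cKO libraries, so that reads may have been divided between these genes. Tpm1 took 46.9% ± 2.88 of tropomyosin counts in control and 34.8% ± 6.52 in Trpm7 cKO MuSCs, and Tpm3 47.4% ± 3.09 and 58.4% ± 6.06, each without overlap.

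**Figure D2:**
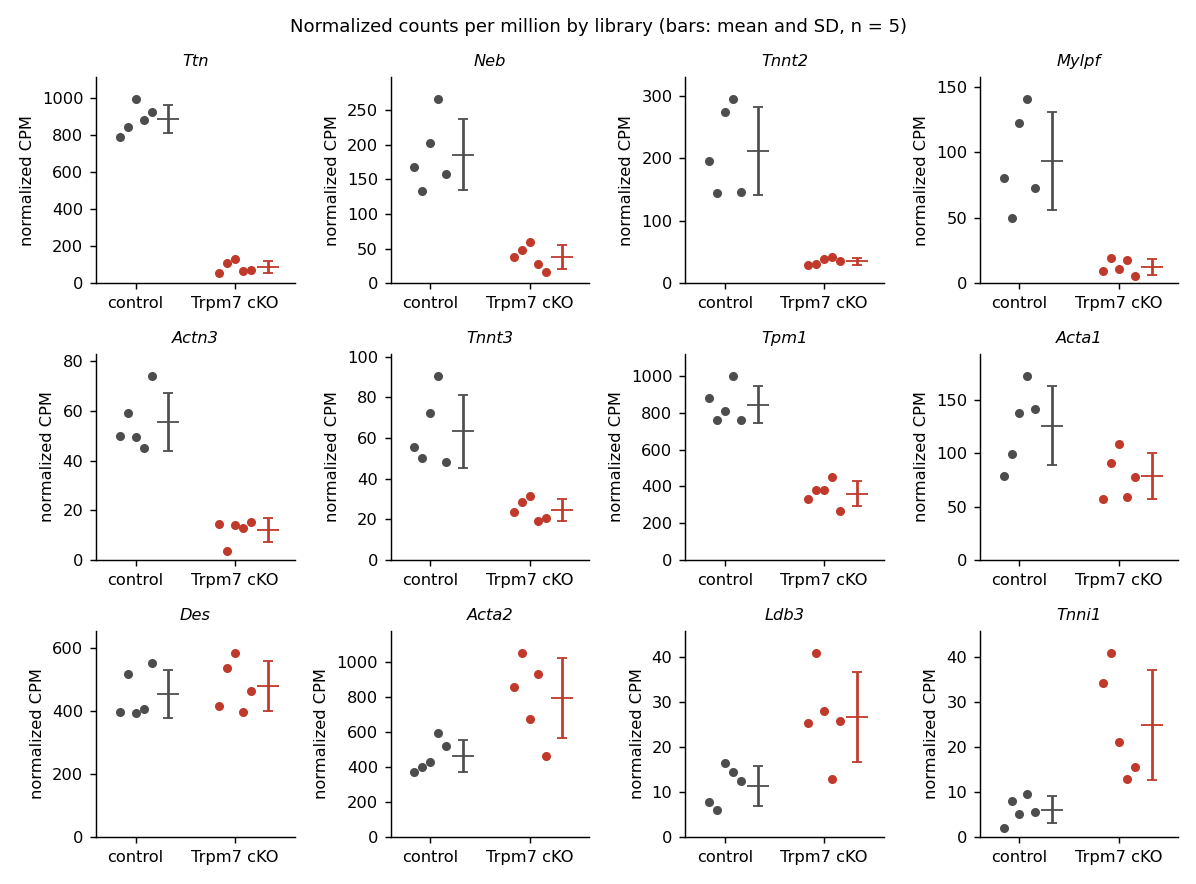
Normalized CPM of 12 of the tested genes in each of 5 control (grey) and 5 Trpm7 cKO (red) libraries, with the mean and SD at the right of each group. Ttn, Neb, Tnnt2, Mylpf, Actn3, Tnnt3 and Tpm1 show no overlap with Trpm7 cKO below control, Tnni1 shows none with Trpm7 cKO above, and Acta1, Des, Acta2 and Ldb3 overlap; the higher Acta2 level of Trpm7 cKO turned in sign under 2 other scalings.

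Of the 11 thick filament genes with a row, 9 were removed by the filter and 2 were tested, both of which fell, against 24.2% of all tested genes. Mylpf, the regulatory light chain of fast skeletal myosin (chr7:127208890-127214298), stood at 80.4, 50.1, 123, 141 and 72.9 CPM in control and 9.0, 19.5, 10.5, 17.6 and 5.16 CPM in Trpm7 cKO libraries. Every Trpm7 cKO library lay below every control library, and the raw counts were 84, 50, 119, 146 and 65 against 5, 11, 3, 11 and 1. Mylpf fell 6.72-fold, with a log2 fold change of -2.75 ± 0.34 (SE) and an adjusted p of 3.71e-06. Myl1, the essential light chain of fast myosin, stood at 34.4, 27.1, 58.7, 77.0 and 28.1 CPM in control and 30.6, 12.4, 38.6, 9.60 and 20.6 CPM in Trpm7 cKO libraries. It fell to 45.9% of control, with a log2 fold change of -1.12 ± 0.40 (SE) and an adjusted p of 0.0272, with overlap, and lost its call without control replicate 3 (-1.01, adjusted p = 0.0586) or 4 (-0.82, adjusted p = 0.0723) or without Trpm7 cKO replicate 2 (-0.95, adjusted p = 0.0792) or 4 (-0.87, adjusted p = 0.0982). Of the last 500 bases of Myl1, 38.2% are shared with the pseudogene Mylf-ps, which had 1 count in all. Myl4, the essential light chain of embryonic muscle and atria, was removed by the filter, with 9, 7, 23, 25 and 11 raw counts in control and 4, 6, 3, 3 and 1 in Trpm7 cKO libraries. Over depth, the summed ratio was 0.504 (95% interval 0.279 to 0.862), and in the edgeR fit without that filter Myl4 was called lower, at -1.16 on the log2 scale with an adjusted p of 0.0271. Among the counts of Mylpf, Myl1 and Myl4, Mylpf took 61.4% ± 3.13 in control and 30.9% ± 18.2 in Trpm7 cKO MuSCs and Myl4 9.54% ± 1.88 and 17.9% ± 4.08, each without overlap, while Myl1 took 29.1% ± 3.06 and 51.2% ± 19.7 with overlap. The Trpm7 cKO shares rested on 26, 24, 17, 20 and 6 counts. In replicate 4 Mylpf stood at 55% (95% interval 31.5 to 76.9), against a lowest control share of 58.2%. In replicate 5 Mylpf and Myl4 had 1 count each. The light chains of slow muscle were near 0, Myl2 with 0 counts in control and 0, 1, 3, 0 and 1 in Trpm7 cKO libraries and Myl3 with 0 in control and 0, 0, 2, 0 and 1. The ratio of Myl2 over depth had a lower 95% bound of 2.04, and without the filter Myl2 was called higher with an adjusted p of 0.0120, at a fitted value that depends on the prior count. Ccdc63 on the opposite strand shares 13.4% of the last 500 bases of Myl2, so that these few counts are uncertain.

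Myosin heavy chains, the motors of contraction, were read at low counts only, and none was tested after the filter. Myh3, the embryonic heavy chain (chr11:67078300-67102291), had 15, 9, 22, 26 and 21 raw counts in control and 0, 2, 0, 2 and 1 in Trpm7 cKO libraries, 93 against 5 in all. In CPM it ran from 9.02 to 25.0 in control and from 0 to 5.16 in Trpm7 cKO MuSCs, where every library was under its floor of 3 counts. The summed ratio over depth was 0.120, with a 95% interval of 0.0379 to 0.289. The filter on low counts removed Myh3, and in the fit without that filter, which is an alternative, it fell by 3.15 on the log2 scale with an SE of 0.53 and an adjusted p of 4.17e-08. Myh8, the perinatal heavy chain, had 2, 1, 0, 2 and 0 counts in control and 0 in each Trpm7 cKO library, which allows a level of up to 1.35 CPM over the 5 libraries. The interval of its ratio reached from 0 to 2.43, so that a difference was not detectable at this depth.

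The adult heavy chains stood near the floor in both groups. Myh4, of the fastest fibres, had 2, 0, 1, 3 and 0 counts in control and 1, 7, 1, 4 and 5 in Trpm7 cKO libraries. The summed ratio over depth was 6.67 (95% interval 2.54 to 20.5), and without the filter the log2 fold change was 2.45 with an adjusted p of 0.00295, opposite in sign to Myh3. The 3′ end of Myh4 shares 32.2% of its last 500 bases with other genes, the adult heavy chains among them, so that the isoform behind these counts is uncertain. Myh1 had 2 counts in control and 0 in Trpm7 cKO libraries, Myh2 had 1 in each group, and Myh7, the slow heavy chain, had 0 counts in all 10 libraries. For reads that were assigned to Myh7 this allows up to 0.607 CPM in control and 1.35 CPM in Trpm7 cKO, but 74.4% of its last 500 bases are shared with other genes, as are 60.4% for Myh1, 48.0% for Myh2 and 27.8% for Myh8, and reads in such sequence may not have been assigned to any gene.

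**Figure D3:**
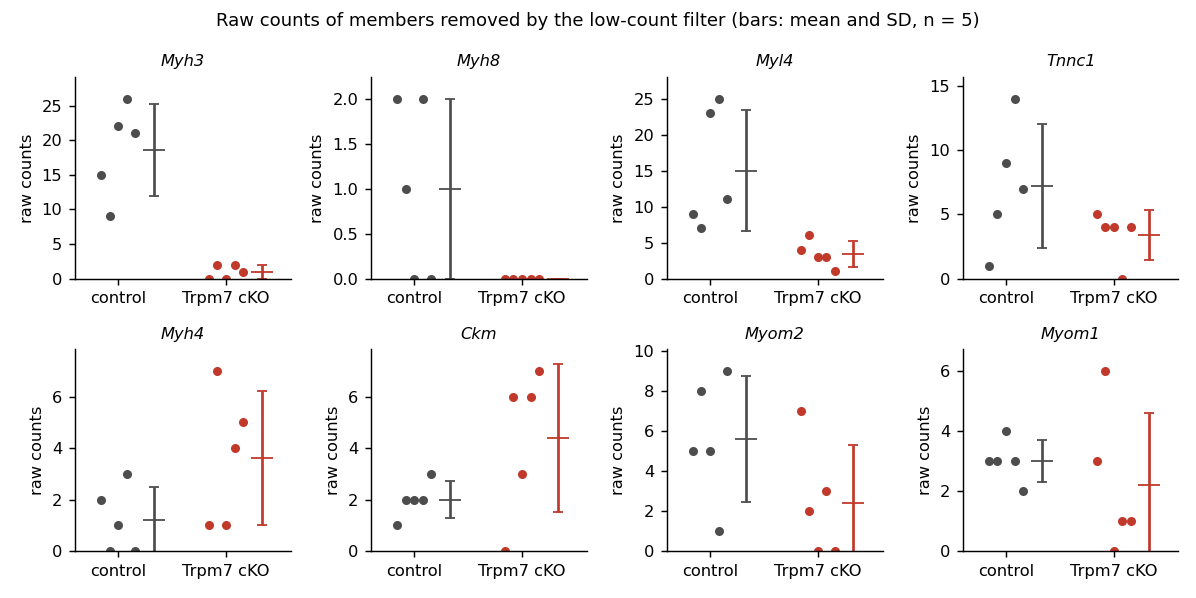
Raw counts, not scaled for the smaller Trpm7 cKO libraries, of 8 genes removed by the filter on low counts, by library, with the mean and SD of 5 libraries at the right of each group. Myh3 falls from 9 to 26 counts in control to at most 2 in Trpm7 cKO libraries, whereas Myh4 and Ckm reach 7 counts only in Trpm7 cKO libraries.

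The Z-disc, M-band and scaffold genes held the largest change. Ttn (chr2:76703980-76982547) encodes titin, the molecular spring of the sarcomere, and stood at 788, 841, 991, 879 and 922 CPM in control and 54.0, 108, 129.7, 67.2 and 72.3 CPM in Trpm7 cKO libraries. In control MuSCs its mean of 884 ± 77.4 CPM (SD, n = 5) was the highest of the listed genes with a row, by less than the spread between libraries above Tpm3 (848 ± 49.5) and Tpm1 (843 ± 100.3), and in Trpm7 cKO MuSCs its mean was 86.3 ± 31.5 CPM. Raw counts were 824, 839, 962, 913 and 822 in control and 30, 61, 37, 42 and 14 in Trpm7 cKO libraries. The groups did not come near each other. Ttn fell 10.4-fold, with a log2 fold change of -3.38 ± 0.20 (SE) and an adjusted p of 1.51e-10, and it kept its call in all 23 alternatives. Actn3, the α-actinin that crosslinks actin at the Z-disc of fast fibres (chr19:4861216-4877909), stood at 49.8, 59.1, 49.5, 45.3 and 74.1 CPM in control and 14.4, 3.55, 14.0, 12.8 and 15.5 CPM in Trpm7 cKO libraries. It fell 4.83-fold without overlap, with a log2 fold change of -2.27 ± 0.29 (SE) and an adjusted p of 2.86e-06.

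Klhl41, a Kelch protein known for stabilizing nebulin, stood at 16.3, 19.0, 21.6, 37.6 and 28.1 CPM in control and 7.2, 8.88, 21.0, 4.80 and 5.16 CPM in Trpm7 cKO libraries. The groups overlapped through Trpm7 cKO replicate 3, and Klhl41 fell 2.79-fold, with a log2 fold change of -1.48 ± 0.38 (SE) and an adjusted p of 0.00302. Trpm7 cKO replicate 5, with 1 count, was under its floor of 15.5 CPM. Repeated sequence shared with many genes fills 33.6% of its last 500 transcript bases, so that its counts are uncertain. Ldb3, a PDZ and LIM domain protein of the Z-disc, went the other way, with 8, 6, 16, 15 and 11 raw counts in control and 14, 23, 8, 8 and 5 in Trpm7 cKO libraries, or 7.66, 6.01, 16.5, 14.4 and 12.3 CPM in control and 25.2, 40.8, 28.0, 12.8 and 25.8 CPM in Trpm7 cKO libraries. It rose 2.29-fold with overlap, with a log2 fold change of 1.20 ± 0.34 (SE) and an adjusted p of 0.00634. Its call was lost without Trpm7 cKO replicate 2 (0.91, adjusted p = 0.0517), and it was 0.27 with scaling on MuSC identity genes and 0.05 with counts per 3000 sorted cells, not called in either.

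Des, the intermediate filament desmin that myoblasts express before they form sarcomeres, was abundant and ranged from 395 to 554 CPM in control and from 397 to 585 CPM in Trpm7 cKO libraries. The ranges nearly coincided, with a log2 fold change of 0.07 ± 0.15 (SE) and an adjusted p of 0.713, and the sign turned to -0.83 with scaling on MuSC identity genes and to -1.10 with counts per 3000 sorted cells. Of its last 500 bases, 44.4% overlap the antisense gene Gm15179, which had 1 count in all. The remaining structural genes of the Z-disc and M-band were too low to be tested. Myom1 and Myom2, the myomesins of the M-band, had 15 and 28 counts in control and 11 and 12 in Trpm7 cKO libraries, with ratios over depth of 1.63 (95% interval 0.677 to 3.80) and 0.953 (0.441 to 1.93). Actn2, the other muscle α-actinin, had 3 counts in each group, and Tcap, which caps titin at the Z-disc, had 1 count in control and 4 in Trpm7 cKO libraries.

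Ryr1, the calcium release channel of skeletal muscle, stood at 7.66, 24.1, 30.9, 22.1 and 23.6 CPM in control and 10.8, 19.5, 7.01, 4.80 and 5.16 CPM in Trpm7 cKO libraries. Trpm7 cKO replicates 3 and 5, with 2 and 1 counts, were under their floors of 10.5 and 15.5 CPM, and replicate 4 was at its floor with 3. Ryr1 levels in these libraries cannot be read closely. It fell to 48.1% of control, with a log2 fold change of -1.05 ± 0.41 (SE) and an adjusted p of 0.0401, with overlap. The call depended on single libraries, since it was lost when any library but control replicate 1 or Trpm7 cKO replicate 2 was left out, with adjusted p between 0.0643 and 0.129, and with DESeq2 it was missed at an adjusted p of 0.0502. Casq2, the cardiac calsequestrin that buffers calcium, ranged from 7.02 to 28.9 CPM in control and from 1.80 to 17.6 CPM in Trpm7 cKO libraries and did not pass, with a log2 fold change of -0.43 ± 0.49 (SE) and an adjusted p of 0.492. Trpm7 cKO replicates 1 and 3, with 1 count each, were under their floors. Ckm, the muscle creatine kinase of mature fibres, was removed by the filter, with 1, 2, 2, 2 and 3 counts in control and 0, 6, 3, 6 and 7 in Trpm7 cKO libraries. The summed ratio over depth was 4.89 (95% interval 2.22 to 11.6), and without the filter the log2 fold change was 2.09 with an adjusted p of 0.00323. Myh4 and Ckm, transcripts of mature fibres, were thus read at a few counts in both groups, with a higher ratio over depth in Trpm7 cKO libraries. Other genes of adult fibres, such as Actn3 and Tnnt3, fell.

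Grouped into stage classes, the listed genes showed unequal change. The stage classes were assigned by hand, with earlier results of these data known, and the stage at which each gene comes on was not tested. Their sums are given as a description. The 6 developmental genes (Myh3, Myh8, Myl4, Actc1, Acta2 and Tnnt2) summed to 834 ± 169 CPM (SD, n = 5) in control and 919 ± 250 CPM in Trpm7 cKO MuSCs. This sum was carried by Acta2, and without it the other 5 summed to 370 ± 101 CPM (244 to 477) and 122 ± 30.2 CPM (77.4 to 151), or 33.1% of control. The 8 early genes (Tnni1, Tnnc1, Tnnt1, Myl1, Mylpf, Mybph, Klhl41 and Des), 7 of them with a row, summed to 649 ± 70.7 CPM and 577 ± 111 CPM, with overlap, most of it Des. The 21 genes assigned to mature muscle, 20 with a row, summed to 1392 ± 164 CPM (1192 to 1548) and 339 ± 78.2 CPM (259 to 428), or 24.4% of control. Most of that level was Ttn, and without Ttn the sums were 508 ± 108 CPM and 253 ± 49.99 CPM, 49.8% of control, still without overlap. The class was not uniform. Of its 9 tested genes 6 fell and Ldb3 rose, where 24.2% of all tested genes were lower and 24.5% higher. Myh4, Ckm and Myl2, removed by the filter, were called higher in the fit without it. The 3 tropomyosins summed to 1792 ± 114 CPM and 1052 ± 182 CPM. All 36 genes together took 4667 ± 401 CPM (4270 to 5261) in control and 2887 ± 290 CPM (2555 to 3206) in Trpm7 cKO libraries. In bulk samples such as these, fewer cells of a type and less RNA per cell cannot be told apart.

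By class, 3 of 6 developmental genes were tested and 2 fell and 1 rose, 6 early genes were tested and 3 fell and 1 rose, 9 genes assigned to mature muscle were tested and 6 fell and 1 rose, and all 3 tropomyosins fell. Over all tested genes 24.2% were lower and 24.5% higher, and classes of 3 to 9 tested genes are too small to be ranked by these calls. The median log2 fold changes of the tested genes were -0.61, -0.66, -1.05 and -0.54 in that order, beside -0.01 over all genes tested. The sum of the developmental class was not lower and that of the early class overlapped, and with TMM scaling the single rises were Acta2, whose sign turned under 2 other scalings, Tnni1 and Ldb3.

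**Figure D4:**
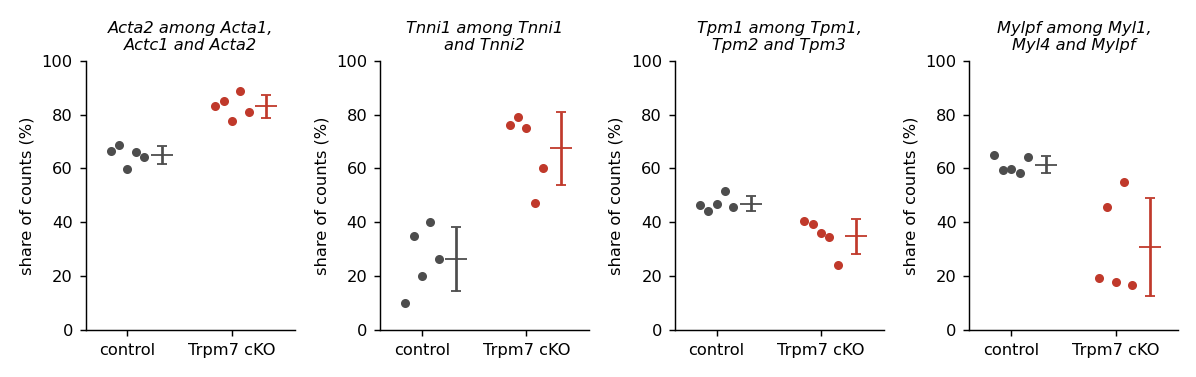
Share of a gene family's raw counts taken by 1 member in each control (grey) and Trpm7 cKO (red) library, in percent, with the mean and SD of 5 libraries; such a share does not depend on how libraries are scaled. Acta2 rises from 65.2% to 83.2% of the actin counts and Tnni1 from 26.2% to 67.5% of troponin I, while Tpm1 falls from 46.9% to 34.8% and Mylpf from 61.4% to 30.9%, none with overlap. Trpm7 cKO replicate 5 held 5 troponin I counts and 6 counts of Myl1, Myl4 and Mylpf, so that its shares in these families are uncertain.

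Other genes of the contractile apparatus and its control were set beside these from fixed lists. Of 35 other sarcomere genes 8 were tested, and 6 fell and 0 rose in the edgeR test, with a median log2 fold change of -1.59. Over all tested genes 24.2% were lower and 24.5% higher. Ankrd1, a titin-binding ankyrin repeat protein, fell from 944 ± 87.1 to 444 ± 156 CPM (log2 fold change -1.06), and Cryab, the small heat shock protein αB-crystallin, fell from 660 ± 137 to 271 ± 71.3 CPM (-1.26). Flnc, the muscle filamin, and Fhl1 did not pass, at -0.30 and 0.20. Of 17 excitation-contraction coupling genes 6 were tested and 4 fell, against the same 24.2% of all tested genes, with a median of -0.92. Atp2a2, the calcium pump of slow muscle and heart, fell by 1.37 on the log2 scale and Cacng1, a subunit of the muscle calcium channel, by 1.90. Of 12 mature fibre metabolism genes only 2 were tested, and Eno3, the muscle enolase, fell from 346 ± 28.2 to 68.9 ± 16.6 CPM (-2.29), while Pygm, the muscle glycogen phosphorylase, did not pass, at 0.42.

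Cytoplasmic counterparts, the actins, myosins, tropomyosin and associated proteins of cells that are not muscle, were all 18 tested. In that list 4 fell, 3 rose and 11 did not pass, against 24.2% lower and 24.5% higher of all tested genes, and the median log2 fold change was 0.06. Actb, the cytoplasmic β-actin, stood at 10803 ± 417 CPM in control and 9968 ± 2070 CPM in Trpm7 cKO MuSCs (-0.12, adjusted p = 0.587), and Cfl1, the actin-severing protein cofilin, fell by 0.84 on the log2 scale. Of 11 myogenic regulators 9 were tested, 7 fell and 2 rose, against the same shares of all tested genes, with a median of -1.32. Myod1, which commits cells to myogenesis, fell from 717 ± 105 to 174 ± 36.6 CPM (-2.01), and Myog, which drives differentiation, fell from 489 ± 31.4 to 123 ± 36.2 CPM (-2.004). Myf5, which MuSCs express before MyoD, rose by 0.81 with an adjusted p of 0.0404.

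Of 20 MuSC identity genes 17 were tested, and 12 rose and 1 fell, against 24.5% higher and 24.2% lower of all tested genes. The list summed to 3171 ± 209 CPM in control and 6171 ± 1376 CPM in Trpm7 cKO libraries. Gpx3, a secreted glutathione peroxidase, made up much of that rise, at 102 ± 35.4 CPM in control and 1549 ± 631 CPM in Trpm7 cKO MuSCs. Genes of other cell types were higher as well. All 23 tested of 32 leukocyte genes rose past both thresholds, against 8.42% of all tested genes. The list summed to 559 ± 120 CPM (418 to 740) in control and 4576 ± 2115 CPM (1596 to 6907) in Trpm7 cKO libraries, with 3 of the 32 at 0 in every control library. Each of the 3 tested of 12 endothelial genes rose (33.7 ± 28.6 against 359 ± 255 CPM summed), as did each of the 3 tested of 5 erythroid genes (41.8 ± 73.7 against 1511 ± 1105 CPM), where 24.5% of all tested genes were higher. Of 12 fibroblast genes 6 were tested, 4 rose and 1 fell (3080 ± 695 against 3623 ± 1004 CPM), beside the same shares of 24.5% higher and 24.2% lower. Of 10 tenocyte and Schwann genes the 1 tested, Scx, fell. By the study's description MuSCs were sorted as YFP-positive cells, and its gate for uninjured muscle left out cells bearing Sca-1, CD45 (leukocytes) or CD31 (endothelium) and kept CD106-positive ones. Whether that gate was applied to these libraries of injured muscle is not given in the sources used here. The part of these cells in the changes of the contractile genes was not tested. With the mean leukocyte level of each library as a covariate, which itself ran from 3.63 to 4.30 in control and from 5.55 to 7.50 (mean log2 CPM) in Trpm7 cKO libraries without overlap, Ttn (-2.71, adjusted p = 0.00305) and Actn3 (-4.64, adjusted p = 0.00165) remained lower and the other 12 calls of a lower level were lost, against 1.6% of all tested genes called lower and 4.58% higher in that fit. Among the lost calls the value was -1.31 for Tpm3 (adjusted p = 0.0597), -1.77 for Tnnt2, -1.04 for Tpm1 and -0.50 for Tpm2.

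How libraries are scaled sets the level against which these genes are read. With TMM factors the median of all genes was -0.01 and with total counts alone it was 0.07. With scaling on the MuSC identity genes the median of all genes moved to -0.89 and that of the 21 contractile genes to -1.6, with 18 of 21 lower and 1 higher, against 62.6% and 7.56% of all tested genes. With counts per 3000 sorted cells the medians were -1.15 and -1.90, with the same numbers of 18 and 1, against 66.6% and 4.90%. Under both, Tnni1 was the 1 gene called higher, at 1.15 and 0.96. When Gpx3 was left out of the identity genes, a choice made after its values were seen, the median of all genes was -0.56 and that of the contractile genes -1.25. In that fit 16 of the 21 were lower and 1 higher, against 46.3% and 11.4% of all tested genes. Acta2 was at 0.27 and not called (adjusted p = 0.330).

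**Figure D5:**
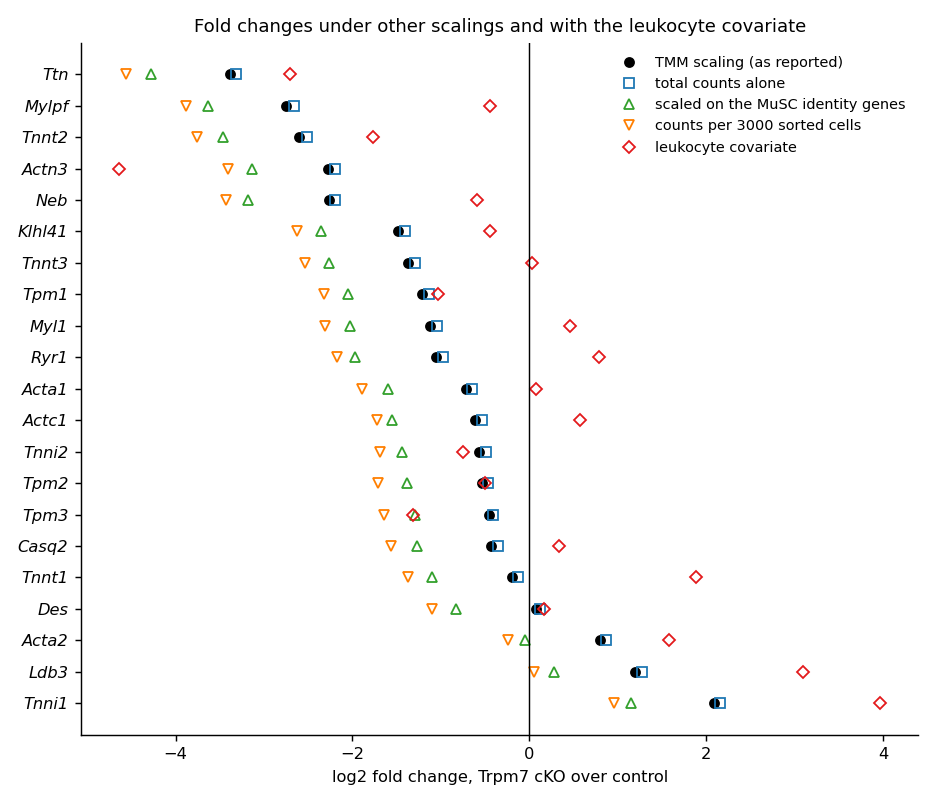
Log2 fold change of Trpm7 cKO over control for the 21 tested genes with TMM factors (black) and under 3 other scalings and the leukocyte covariate (open symbols). Scaling on MuSC identity genes or on sorted cells moves every gene to the left and turns Acta2 and Des below 0, Ttn stays at -2.71 or lower throughout, and the covariate moves 7 genes across 0.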

How the data were processed

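MuSCs of 5 control and 5 Trpm7 cKO libraries were profiled by CEL-Seq2, which reads the 3′ end and tags each molecule with a UMI. Before they deposited the table, the authors extracted barcodes and UMIs with UMI-tools 1.1.4, trimmed reads with Trim Galore 0.6.10, mapped them to GRCm38 with HISAT2 2.2.1, assigned them to genes with featureCounts 2.0.6 and removed UMI duplicates, per the study's methods and the submitters' processing notes. The deposited values are whole-number counts per gene without normalization. The annotation release and strand setting of the counting are not given in the sources used here.

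Differences were tested with edgeR 4.0.16 (R 4.3.3). The function filterByExpr (minimum count 10, minimum total 15) selected genes, TMM factors were computed, and a robust quasi-likelihood fit with genotype as the only term was tested, two-sided, with Benjamini-Hochberg adjustment over 7753 genes at a threshold of 0.05, and with an absolute log2 fold change above 1.5 as a second threshold. CPM were counts divided by total times TMM factor. SEs were derived from the F statistic. The fit was checked on simulated counts. Genes below the filter were given as raw counts and as summed counts over depth with exact conditional 95% intervals. Library totals of 205986 to 1097709 counts set the precision. Of the symbols, 12 stood on a further line, and each line was tested as its own row.

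The 38 genes, their stage classes, the lists (other sarcomere, excitation-contraction coupling, mature fibre metabolism, cytoplasmic counterparts, myogenic regulators, MuSC identity, leukocyte, smooth muscle and pericyte, endothelial, fibroblast, erythroid, tenocyte and Schwann) and the tests were chosen with earlier results of these data known. All 38 could be named, and up to 4 tested genes of highest mean level from each other list. Sequence shared at 3′ ends was counted in matches of 31 bases over the last 500 bases of GENCODE vM21 transcripts, and windows at start sites came from RefSeq (GRCm38.p6, the first entry of a symbol, 32 of 38 matched). Alternatives were DESeq2 1.42.0, RLE factors, total counts alone, scaling on MuSC identity genes, counts per 3000 sorted cells, no filter, a stricter filter (10 counts in 5 libraries), counts thinned to the smallest library, a block for replicate number, the leukocyte level as covariate, each library left out, Trpm7 cKO replicates 4 and 5 summed, and, chosen after seeing the data, the 5 control with the 3 deeper Trpm7 cKO libraries and identity genes without Gpx3. No other experiment of the study was used here.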

Additional observations from a re-analysis of the deposited data

Results flagged for a closer look

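Of 50 groups of 5 libraries checked for a sample far from the others, 2 were flagged, and chance alone flags about 1 group in 20. Actn3 in Trpm7 cKO replicate 2 stood at 3.55 CPM, where the other 4 Trpm7 cKO libraries lay between 12.8 and 15.5 CPM. This library lies further from control than the others. Klhl41 in Trpm7 cKO replicate 3 stood at 21.0 CPM, where the others lay between 4.80 and 8.88 CPM, and it is the library through which the groups overlap. Both values rest on few raw counts, 2 for Actn3 and 6 for Klhl41.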

How the results depend on the processing

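The number of genes lower stayed within 1.5 times of 14 under DESeq2 (13), RLE factors (14), total counts alone (12), no filter (14), the stricter filter (14), Trpm7 cKO replicates 4 and 5 summed (12) and the 5 control and 3 deeper Trpm7 cKO libraries (12). In that order, 22.1%, 23.6%, 20.4%, 12%, 23.5%, 24.5% and 20.2% of all tested genes were lower. The replicate numbers did not pair the libraries, with correlations between -0.12 and 0.18 for libraries of one number, and with the replicate block 13 genes were lower and 3 higher, 5 and 1 of them past both thresholds. With that block 22.7% of all tested genes were lower and 23.3% higher. Leaving out each library in turn gave 10 to 13 genes lower and 2 to 3 higher, with 5 to 6 and 1 past both thresholds. Over all tested genes these fits gave 21.1% to 24.5% lower and 22.4% to 24.6% higher. The counts above are over the 21 tested genes, and over all 36 genes with a row the fit without a filter gave 16 lower (Myh3 and Myl4 besides the 14) and 6 higher (Myh4, Ckm and Myl2 besides the 3). In that fit 12% of 21922 genes were lower and 13.1% higher. Its median log2 fold change was 0.168 over all genes and -0.914 over the 21, against -0.72 for the 21 with the filter. Scaling on MuSC identity genes gave 1 higher, 12 lower past both thresholds and 0 higher past both, with Acta2 at -0.052 and Des at -0.83. Without Gpx3 among the identity genes these were 1, 10 and 0, with Des at -0.48. Counts per 3000 sorted cells gave 1, 16 and 0, with Acta2 at -0.24 and Des at -1.10. The stricter filter left out Tnni1 and so gave 0 higher past both thresholds, and without a filter Des was at -0.13. Thinning to the smallest library left 11 of the genes to be tested among 3945, with 5 lower, 1 higher and 0 higher past both thresholds. Of the 3945 genes, 10.9% were lower and 12.9% higher. With the leukocyte covariate 2 genes were lower, 2 lower and 3 higher past both thresholds, against 1.6% of all tested genes lower and 4.58% higher at the adjusted p threshold, and signs turned for Acta1 (0.079), Actc1 (0.57), Myl1 (0.46), Tnnt1 (1.88), Tnnt3 (0.028), Casq2 (0.34) and Ryr1 (0.79); the cause was not tested, and the covariate did not overlap between genotypes. With a library left out, Tnnt1 ran from -0.52 to 0.21, Casq2 from -0.82 to 0.0026 and Des from -0.0045 to 0.16, none of them called. Over single genes and all alternatives, 401 values kept their direction and side of the threshold, 47 lost a call and 7 gained one under the same sign, and 17 turned in sign, 7 of which also lost a call and 3 gained one. Depth limits the low genes most, since the smallest library could not show a level under 15.5 CPM.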

Other observations

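Pvalb, the calcium buffer parvalbumin of fast adult fibres, was named after its values were seen and was too low to be tested. It had 2, 2, 1, 1 and 0 raw counts in control and 4, 6, 4, 6 and 0 in Trpm7 cKO libraries, so that it was counted more often in 4 of 5 Trpm7 cKO libraries than in any control library although those libraries were smaller. Eno3, of the same mature fibre list, went the other way, with 408, 320, 329, 367 and 289 counts in control and 30, 38, 20, 60 and 11 in Trpm7 cKO libraries.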
